A study of Mus musculus with 6 samples.

Results

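The mouse genes described here encode epithelial transporters, channels and a related receptor, and were followed across 6 RNA sequencing libraries: Slc13a1, Slc7a13, Aqp7, Aqp3, Atp6v0d2, Slc26a7, Cftr and Stra6l. They are 8 of the 53546 gene features counted in the files. They were chosen from earlier results on these same libraries, so their differences between controls 1 and 2 and between those and the other 4 libraries are given as a description, with no test. The choice drew on the difference between controls 1 and 2 and the other 4 libraries, with no fixed cutoff. Slc26a7 does not show that difference, while the other 7 do. The genes were grouped by the segment of the kidney tubule, or nephron, in which each is known to act: Slc13a1, Slc7a13 and Aqp7 with the proximal tubule, Aqp3 with the principal cells of the collecting duct, Atp6v0d2 and Slc26a7 with the intercalated cells, and Cftr and Stra6l with no single segment.

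The libraries were made from total RNA of C57BL/6 mice, 3 labelled control and 3 labelled spinal cord injury, with no other genotype, agent or operation named for either group. The sample labels name both spinal cord and intervertebral disc as the tissue, while the series text speaks of retina and of mice 21 days old. No sex, time after injury or statement that the 3 libraries of a group came from separate animals is given, so the spread between libraries may be technical. Totals ran from 2385703 to 3921627 counts per library, and 1 count is worth less than 0.5 CPM (the count divided by the library's total and multiplied by 1000000) in every library.

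Controls 1 and 2 went against the labelled tissue, and every result below is given with that in view. Of 11 neuron markers listed, 5 could be read, and their summed level was 1.54 CPM in control 1 and 3.82 CPM in control 2 against 1029 to 1140 CPM in control 3 and the 3 injury libraries. Slc17a6, a glutamate transporter of neurons, and Gria2, a glutamate receptor subunit, were at 0 in both. The 5 readable glia markers of 10 summed to 196 and 93.6 CPM in controls 1 and 2 and to 1499 to 1847 CPM in the other 4 libraries, and 181 and 42.1 CPM of the first pair of sums came from Aldh1l1, an enzyme that liver and kidney also make. The 3 readable markers of disc and cartilage, of 9, summed to 1.54 and 6.37 CPM in controls 1 and 2 and to 43.6 to 70.5 CPM in the others. The readable retina markers, 4 of 8, summed to 0.770 and 8.16 CPM against 17.2 to 22.4 CPM. In bulk RNA of this kind, fewer cells of a type and less RNA per cell cannot be told apart.

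The nephron filters plasma and then recovers or secretes solutes along a fixed series of epithelial segments. The proximal tubule takes back most of the filtered sodium, phosphate, sulfate, amino acids and glycerol through brush border carriers. The collecting duct mixes principal cells, which move water and sodium, with intercalated cells, which pump protons or bicarbonate through V-type ATPases and anion exchangers. Several of these genes also act elsewhere: Aqp7 in fat, Aqp3 in skin, Slc26a7 in stomach and thyroid, Atp6v0d2 in osteoclasts, and Cftr in gut, pancreas and airway.

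In the proximal tubule group, Slc13a1 encodes the sodium-coupled sulfate carrier of the brush border. Its feature lies on chromosome 6 from 24088282 to 24168091 on the minus strand, with 7728 exonic bases. Slc13a1 stood at 981 CPM in control 1, 1359 in control 2, 4.59 in control 3, 4.47 in injury 1, 2.46 in injury 2 and 0.838 in injury 3. Controls 1 and 2 were high and the other 4 low, with no overlap, and control 3 stood next to injury 1. The 34 counts of Slc13a1 in those 4 libraries together gave a level 310-fold below control 1 (95% interval of the counting error, 222 to 449) and 430-fold below control 2 (307 to 621). All such intervals cover counting error only.

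Slc7a13 encodes a transporter subunit for aspartate, glutamate and cystine of the late proximal tubule, and is known to be higher in kidneys of male mice than of female mice. Its feature lies on chromosome 4 from 19818725 to 19842218 on the plus strand, with 2141 exonic bases. Slc7a13 stood at 1233 CPM in control 1 and 140 CPM in control 2, from 4805 and 548 counts, and no count fell on it in control 3 or in any injury library. A count of 0 in the 4 libraries together, 10754322 counts in all, allows a level of up to 0.279 CPM (3 counts over the 4 libraries). Against that floor, Slc7a13 was at least 4421-fold higher in control 1 and at least 501-fold higher in control 2. The Y-linked genes Ddx3y, Eif2s3y, Uty and Kdm5d were at 144 CPM or more in all 6 libraries.

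Aqp7 encodes an aquaglyceroporin, a channel for water and glycerol, of the proximal tubule brush border and of fat cells. It lies on chromosome 4 from 41033074 to 41048139 on the minus strand, with 2828 exonic bases. Aqp7 stood at 33.1 CPM in control 1, 37.7 in control 2, 0.382 in control 3, 0 in injury 1, 0.702 in injury 2 and 0.419 in injury 3. These low values are 4 counts in all, against 129 and 148 counts in controls 1 and 2, a ratio of 89.0 (33.9 to 332) and 101 (38.8 to 377). Readable fat cell markers, 3 of 7, summed to 8.98 and 10.96 CPM in controls 1 and 2 and to at most 1.15 CPM in the others.

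Aqp3, the other aquaglyceroporin, sits in the basolateral membrane of principal cells and lets water leave the cell. Aqp3 lies on chromosome 4 from 41092722 to 41098183 on the minus strand, with 1829 exonic bases. Aqp3 stood at 35.2 CPM in control 1 and 37.0 CPM in control 2, from 137 and 145 counts, and at 0 in each of the other 4 libraries. Against the floor of 3 counts over those 4, it was at least 126-fold higher in control 1 and at least 133-fold higher in control 2. Aqp3 and Aqp7 are neighbours on the same strand, 44.6 kb apart, and both were high in controls 1 and 2 and at or near 0 elsewhere.

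The sequence just before each of these aquaporin genes is shown because the pair lies side by side and shared one pattern over the libraries. The windows come from the RefSeq promoter table (GRCm38.p6), which held 4 of the 8 genes, and are cut to end at the base before the gene's first annotated exon. Aqp3 is at chr4:41098184-41098433, 250 bases, and Aqp7 at chr4:41048140-41048386, 247 bases, both read on the minus strand from 5′ to 3′. Capitals mark TATAAA, the only motif searched, on both strands.
Aqp3: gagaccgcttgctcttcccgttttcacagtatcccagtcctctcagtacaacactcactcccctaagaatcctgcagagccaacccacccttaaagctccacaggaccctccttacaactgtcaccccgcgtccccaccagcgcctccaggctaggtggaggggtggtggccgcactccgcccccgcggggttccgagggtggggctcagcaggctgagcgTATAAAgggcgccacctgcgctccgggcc
Aqp7: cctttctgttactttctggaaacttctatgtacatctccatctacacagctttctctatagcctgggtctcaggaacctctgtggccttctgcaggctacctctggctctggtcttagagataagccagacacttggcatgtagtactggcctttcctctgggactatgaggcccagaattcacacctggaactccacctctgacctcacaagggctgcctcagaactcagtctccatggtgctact
The motif in Aqp3 lay on the gene's own strand with its first base 29 bases before the start, and the Aqp7 window held none. The Cftr window did not hold it. The Stra6l windows and a second Aqp7 window, from another start site, kept fewer than 100 bases outside exons and are not described. TATAAA was present in 12.4% of the 32851 uncut windows of 250 bases in the table, so its presence is a description of these letters. The Aqp3 window was 64% G or C with 14 CpG and the printed Aqp7 window 50.6% with 0 CpG, beside a median of 52.4% and 6 CpG over all uncut windows, and the Cftr window reached 76.4% and 30 CpG.

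Among the intercalated cell genes, Atp6v0d2 encodes a subunit of the membrane sector of the V-type proton pump in intercalated cells and osteoclasts. It lies on chromosome 4 from 19876841 to 19922605 on the minus strand, with 2716 exonic bases. Atp6v0d2 stood at 84.2 CPM in control 1, 131 in control 2, 0.382 in control 3, 0.344 in injury 1, 0.351 in injury 2 and 0.838 in injury 3. The groups of 2 and 4 libraries did not overlap, and the 5 counts in the latter put it 181-fold (76.8 to 561) below control 1 and 281-fold (120 to 869) below control 2. Readable osteoclast markers, 2 of a list of 6 without Atp6v0d2, summed to 11.04 and 28.0 CPM in controls 1 and 2 and to 1.26 to 5.27 CPM in the others.

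Slc26a7, an anion exchanger of the basolateral membrane in acid-secreting intercalated cells and of stomach parietal cells and thyroid, went differently. It lies on chromosome 4 from 14502430 to 14621805 on the minus strand, with 5431 exonic bases. Slc26a7 stood at 1.03 CPM in control 1, 7.14 in control 2, 1.53 in control 3, 2.06 in injury 1, 3.16 in injury 2 and 5.45 in injury 3. Control 1 was the lowest of the 6 and control 2 the highest, so the other 4 libraries lay between them. The counts behind these levels run from 4 to 28, and over the 4 other libraries together the level was 2.98 CPM.

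Cftr encodes the chloride channel whose loss causes cystic fibrosis, and is known from several parts of the nephron at low levels. The Cftr feature lies on chromosome 6 from 18170686 to 18322767 on the plus strand, with 7765 exonic bases, of which 129 (1.66%) are shared with the feature Gm15592, so that strandless reads there could not be assigned to Cftr. Cftr stood at 45.2 CPM in control 1, 65.3 in control 2, 8.79 in control 3, 7.57 in injury 1, 8.08 in injury 2 and 5.45 in injury 3. It was higher in both of the first controls than in the rest, but with the smallest ratios of the 7 genes that separated them: 6.00 (4.58 to 7.90) and 8.67 (6.73 to 11.3). Cftr also kept the most counts in the other 4 libraries, 81 in all.

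Stra6l encodes a membrane receptor for retinol-binding protein that is related to Stra6. It lies on chromosome 4 from 45848664 to 45887008 on the plus strand, with 9567 exonic bases. Stra6l stood at 244 CPM in control 1, 139 in control 2, 0.382 in control 3, 1.38 in injury 1, 1.76 in injury 2 and 0.838 in injury 3. These are ratios of 219 (125 to 425) and 124 (70.6 to 242) against the other 4 libraries, which did not overlap with controls 1 and 2.

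**Figure D1:**
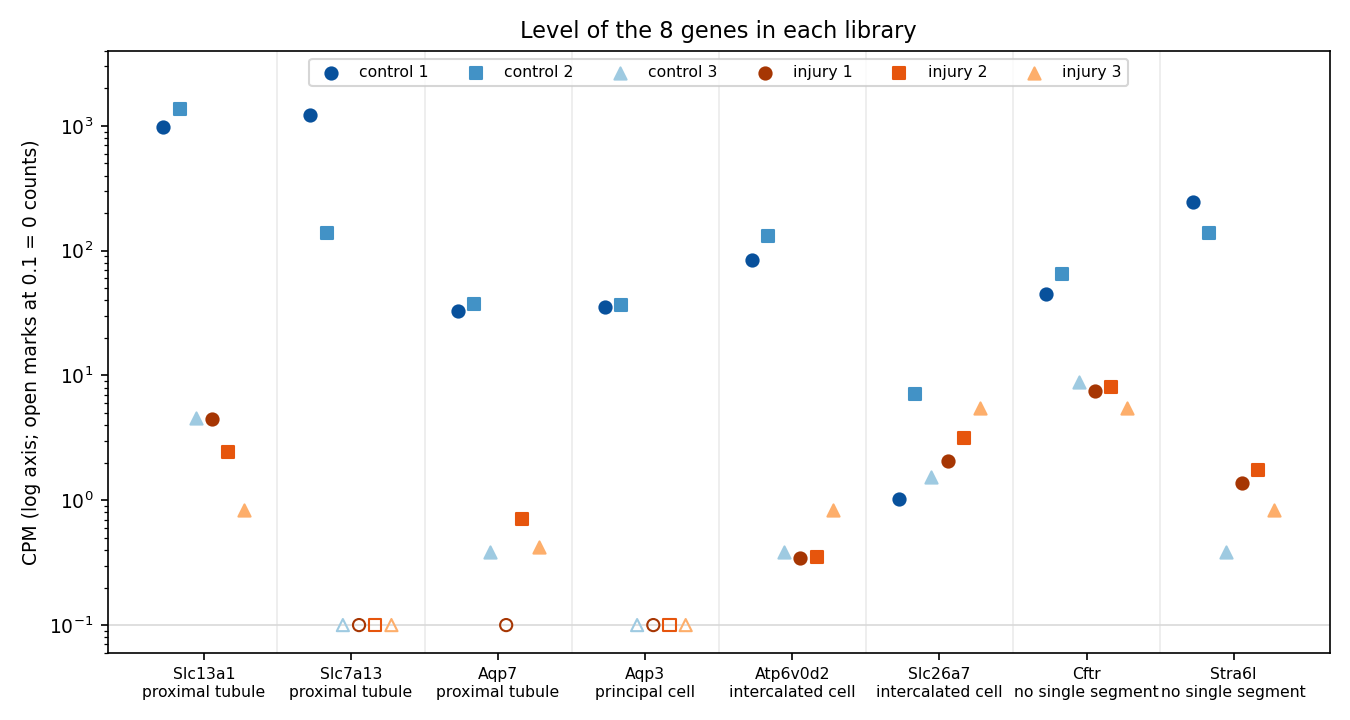
Level of each of the 8 genes in CPM (vertical, log axis, with counts of 0 drawn as open points at 0.1) in each of the 6 libraries, ordered by nephron segment, with 1 point per library and no averaging. Controls 1 and 2 lie above the other 4 libraries for 7 genes, and Slc26a7 is the exception, with control 1 at 1.03 CPM and control 2 at 7.14 CPM on either side of the rest; the genes were chosen on this pattern, and of 556 features with matching names and at least 5 CPM in 1 library, 26.8% are higher and 47.3% lower in both of controls 1 and 2.

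Per base of exon, the order of the genes differed between controls 1 and 2. On the RPKM scale (CPM divided by the exonic length in kilobases), control 1 ran from Slc7a13 at 576 through Slc13a1 at 127, Atp6v0d2 at 31.0, Stra6l at 25.5, Aqp3 at 19.2, Aqp7 at 11.7 and Cftr at 5.82 to Slc26a7 at 0.189 RPKM. Control 2 ran from Slc13a1 at 176 through Slc7a13 at 65.3, Atp6v0d2 at 48.1, Aqp3 at 20.2, Stra6l at 14.5, Aqp7 at 13.3 and Cftr at 8.41 to Slc26a7 at 1.31 RPKM. The 2 orders differ in Slc7a13 with Slc13a1 and in Stra6l with Aqp3. Counting intervals of neighbours in these orders overlapped for 1 pair, Stra6l and Aqp7 in control 2. In control 3 and injuries 1 and 2, Cftr led at 0.975 to 1.13 RPKM, and in injury 3 Slc26a7 did at 1.00 RPKM, but there every neighbouring pair overlapped in its counting interval.

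With control 3 among the low libraries, the spread of the 3 controls was of the size of their mean for most of the genes. Slc13a1 averaged 781 ± 699 CPM (SD, n = 3) in the controls and 2.59 ± 1.82 (SD, n = 3) in the injury libraries. For Slc7a13 the control mean was 458 ± 675 CPM (SD, n = 3), and all 3 injury libraries were at 0. Stra6l averaged 128 ± 122 CPM (SD, n = 3) against 1.32 ± 0.461 (SD, n = 3), and Atp6v0d2 71.7 ± 66.0 (SD, n = 3) against 0.511 ± 0.283 (SD, n = 3). Aqp7 averaged 23.7 ± 20.4 CPM (SD, n = 3) against 0.374 ± 0.353 (SD, n = 3), and Aqp3 24.0 ± 20.8 CPM (SD, n = 3) against 0 in all 3. Cftr averaged 39.7 ± 28.6 CPM (SD, n = 3) against 7.03 ± 1.39 (SD, n = 3). For Slc26a7 the means differed by less than either SD, 3.23 ± 3.39 CPM (SD, n = 3) in the controls and 3.56 ± 1.73 (SD, n = 3) after injury.

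The comparison of injury with control over all 6 libraries used edgeR's quasi-likelihood test with Benjamini-Hochberg adjustment. It called 0 of 12646 features (0%) at an adjusted p of 0.05, with 3245 at an unadjusted p under 0.05. DESeq2 called 1503 of the same features, and limma-voom 0. Of the 8 genes, 2 passed the filter on low counts, Slc13a1 and Cftr, and the other 6 were not tested. Slc13a1 had a log2 fold change of -8.03 (SE 1.99), with injury lower, and Cftr of -2.31 (SE 0.71), and neither was called. DESeq2 called both, but the genes were chosen on their levels in controls 1 and 2, which enter this contrast, and the call is no support.

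Which control libraries entered decided these calls. Without control 3, when the controls were libraries 1 and 2 alone, all 8 genes passed the filter and 7 were called lower in the injury libraries, where 36.6% of the 15320 features tested were lower and 30.2% higher. That setting lacks only control 3 of the contrast on which the genes were chosen, controls 1 and 2 against the other 4 libraries. Slc7a13 and Aqp3, at 0 in every injury library, passed the filter only through controls 1 and 2. The 7 calls therefore follow from the choice, and nothing is read from them. Slc26a7 had a log2 fold change of 0.42 (SE 0.74) there. Without controls 1 and 2, which left control 3 by itself and took its spread to be that of the injury libraries, 3 of the 8 passed the filter and 0 were called, where 6.78% of 13857 features were. There the log2 fold changes were -0.66 (SE 0.68) for Slc13a1, -0.19 (SE 0.41) for Cftr and 1.28 (SE 0.83) for Slc26a7.

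Controls 1 and 2 were then compared with each other, 1 library against 1, so that no p-value can be given. Slc7a13 was 8.83-fold (8.08 to 9.66) and Stra6l 1.76-fold (1.58 to 1.96) higher in control 1. Slc26a7 was 6.95-fold (2.43 to 27.3) and Atp6v0d2 1.55-fold (1.35 to 1.79) higher in control 2. For Slc7a13, Stra6l and Slc26a7 the direction was the same under TMM scaling (edgeR's trimmed mean of ratios), with intervals that leave out 1, and with totals without the 10 most abundant features. For Atp6v0d2 the control 1 to control 2 ratio was 0.943 under TMM scaling (0.818 to 1.08), an interval that includes 1. Slc13a1 at a control 1 to control 2 ratio of 0.722 (0.692 to 0.753) and Cftr at 0.692 (0.568 to 0.842) were lower in control 1 by total count, but TMM scaling, which multiplies every such ratio by 1.46, put them at 1.06 (1.01 to 1.10) and 1.01 (0.830 to 1.23). Aqp3 at 0.951 (0.747 to 1.21) and Aqp7 at 0.877 (0.687 to 1.12) had intervals that include 1 by total count, and stood at 1.39 (1.09 to 1.77) and 1.28 (1.00 to 1.64) under TMM scaling.

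By total count, 1 of the 8 genes was past 2-fold higher in control 1, Slc7a13, and 1 past 2-fold higher in control 2, Slc26a7. Over the 19554 features with at least 10 counts in the 2 libraries, 6.41% were past 2-fold higher in control 1 and 43.2% in control 2. Under TMM scaling, 2 of the 8 were past 2-fold higher in control 1, Slc7a13 and Stra6l, and Slc26a7 in control 2, beside 13% and 29.3% of the features. The median ratio of the 8 was 0.7996, beside 0.585 over all features (0.856 under TMM scaling, where the 8 had 1.17). Within the proximal tubule group the ratio ran from 0.722 for Slc13a1 to 8.83 for Slc7a13, and the intercalated cell genes were both below 1. With 1 to 3 of the 8 in a segment, segments were not compared as groups.

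**Figure D2:**
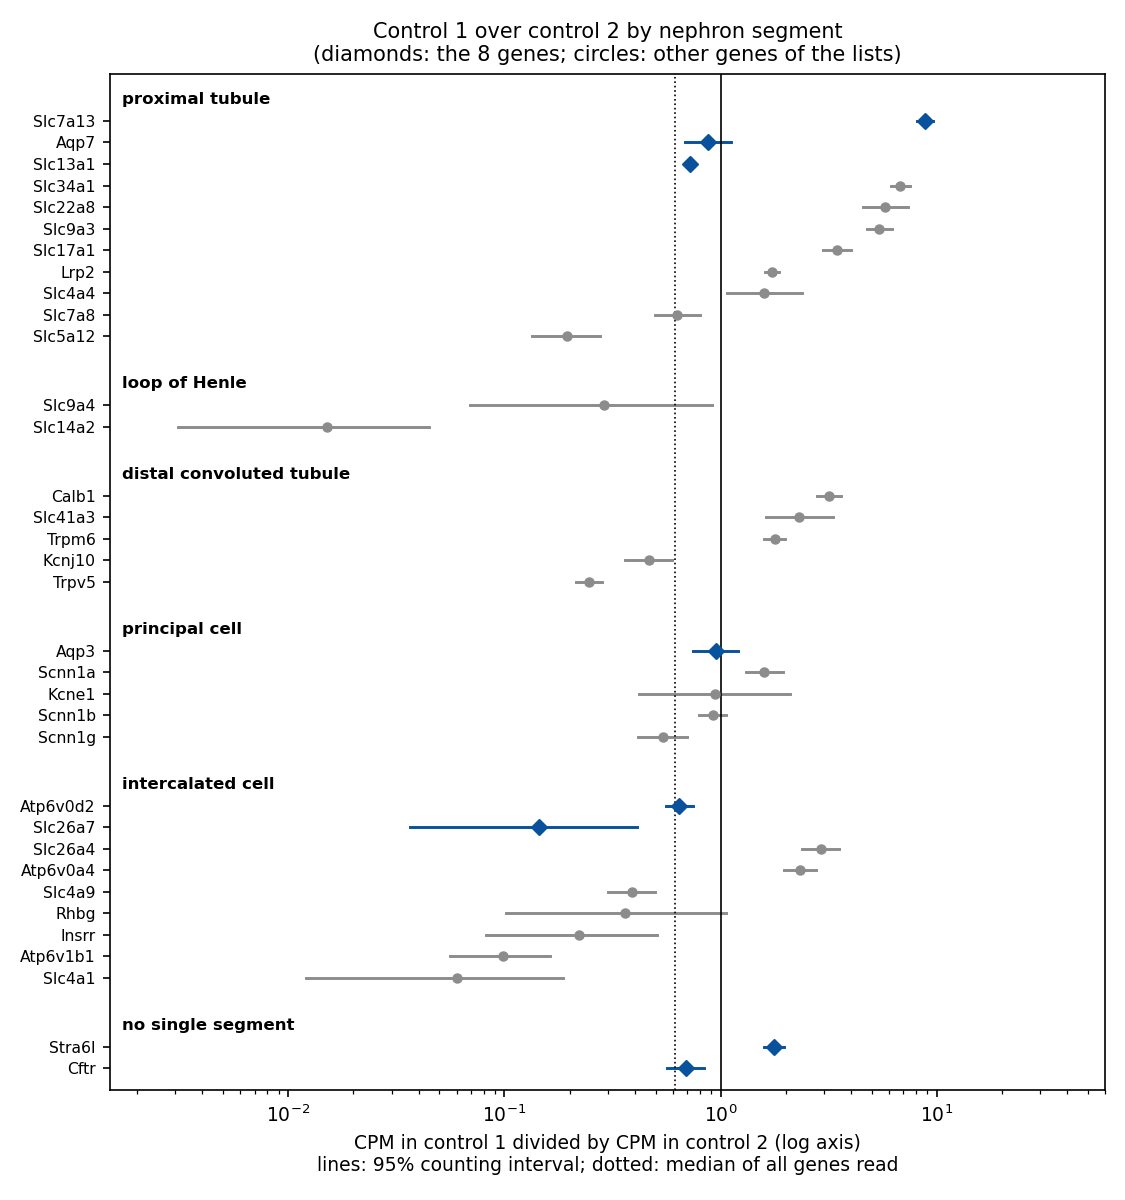
Ratio of control 1 to control 2 in CPM (horizontal, log axis) for the 8 genes and for the readable nephron list genes with at least 10 counts, grouped by segment, with bars for the 95% interval of counting error. Slc7a13 lies at 8.83 and Slc26a7 at 0.144 by total count; under TMM scaling all points move right by 1.46 times, and Slc13a1, Aqp3, Aqp7 and Cftr then change to the other side of 1.

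Other nephron genes were read to see whether the segments behaved alike. Most features in these files carry a name that does not belong to their coordinates on GRCm38, and 1755 of 53546, the 8 genes among them, do. Any other gene was read as the sum of the features lying on its exons, whatever their name, and often covers only a small share of those exons, so its level is not comparable between genes. Of 92 genes in 7 kidney lists, 30 could be read in this way.

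Among proximal tubule genes, 9 of 29 could be read. Slc34a1, the phosphate carrier of the brush border, stood at 828 CPM in control 1, 122 in control 2 and 0 in each of the others. Its reads fell on 3.42% of its exonic bases. Lrp2, the endocytic receptor megalin, stood at 474 and 275 CPM in controls 1 and 2 and at 2.10 to 4.57 in the others. Slc9a3, the sodium-proton exchanger, stood at 371 and 68.3 CPM, Slc17a1, a phosphate and urate carrier, at 212 and 61.2, and Slc22a8, an organic anion carrier, at 125 and 21.7, with at most 5.85 CPM of any of them in the other 4. Slc5a12, a lactate carrier, went the other way, at 9.75 CPM in control 1 and 50.2 in control 2.

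Of the 8 readable proximal genes with at least 10 counts, 4 were past 2-fold higher in control 1 and 1 in control 2, beside 7.34% and 41% of all 6147 genes read by overlying features. Under TMM scaling these became 6 and 1 of the 8, beside 14.6% and 28.1%. Their median log2 ratio of control 1 to control 2 was 1.29, beside -0.70 over all these genes, and TMM scaling adds 0.55 to both. Slc7a13 at 8.83-fold (8.08 to 9.66) lay beyond Slc34a1 at 6.79-fold (6.17 to 7.49), the highest of the list. Slc13a1 at 0.722 and Aqp7 at 0.877, of the same segment, stood below 1 with Slc5a12 and Slc7a8 by total count, though TMM scaling moved Slc13a1 and Aqp7 above 1.

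Collecting duct genes were mixed. Of the principal cell genes, 4 of 9 could be read, and 3 of them are subunits of the epithelial sodium channel, Scnn1b at 92.7 and 101 CPM, Scnn1a at 67.8 and 42.6 and Scnn1g at 24.1 and 44.6 in controls 1 and 2. No library outside controls 1 and 2 held more than 3.51 CPM of any of them. The median log2 ratio of control 1 to control 2 over the 4 was -0.10, beside -0.70 over all genes read by overlying features. None of the 4 was past 2-fold in either direction, with 1, Scnn1a, past it in control 1 under TMM scaling. Of all those genes, 7.34% were past 2-fold higher in control 1 and 41% in control 2 by total count. Aqp3, at a ratio of 0.951 (0.747 to 1.21), overlapped with Scnn1b at 0.9199 (0.795 to 1.06), and both were above 1 under TMM scaling.

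Of the intercalated cell genes, 7 of 13 could be read, and all 7 were past 2-fold, 2 higher in control 1 and 5 in control 2 (2 and 3 under TMM scaling). Some of these ratios rest on few counts. The least abundant of the 5 had 5 and 14 counts in controls 1 and 2, and its interval, 0.101 to 1.06, includes 1. Slc4a1 had 3 and 50 counts. Over all 6147 genes read by overlying features, 7.34% were past 2-fold higher in control 1 and 41% in control 2 (14.6% and 28.1% under TMM scaling). Slc26a4, the chloride-bicarbonate exchanger pendrin, stood at 102 CPM in control 1 and 35.2 in control 2, and Atp6v0a4, another membrane subunit of the proton pump, at 117 and 49.98. Atp6v1b1, a subunit of the pump's cytosolic sector, stood at 4.36 and 44.4 CPM, and Slc4a1, the basolateral exchanger of acid-secreting cells, at 0.770 and 12.7. The pump subunits differed among themselves in the ratio of control 1 to control 2, from 0.0983 for Atp6v1b1 through 0.645 for Atp6v0d2 to 2.34 for Atp6v0a4. Slc4a1, which red blood cells also make, reached 15.9 CPM in injury 3.

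The distal convoluted tubule list gave 5 of 9 genes, which went in different directions. Kcnj10, a potassium channel of that segment and of astrocytes, had the highest level, at 24.6 and 52.8 CPM in controls 1 and 2 and 1203 to 1627 in the others. Trpm6, a magnesium channel, stood at 215 and 121 CPM in controls 1 and 2, and Trpv5, a calcium channel, at 69.6 and 282, with at most 2.10 CPM of either in the others. Calb1, a calcium buffer of that segment and of neurons, was at 249 CPM in control 1, 78.5 in control 2 and 216 to 252 in the other 4. Slc41a3, a magnesium carrier, stood at 27.7 and 11.98 CPM, and at 1.05 to 2.06 in the others. Kl, the co-receptor klotho, the 1 readable gene of 13 in the list of other kidney genes, stood at 25.2 and 109 CPM and at 0.702 to 4.97 in the others. In the loop of Henle list, 3 of 12 genes could be read. Slc14a2, a urea transporter, stood there at 0.770 CPM in control 1, 51.0 in control 2 and 1.38 to 3.82 in the others. Control 1 held 3 counts of Slc14a2 and the libraries other than control 2 held 4 to 10, too few to order them. Slc9a4 stood at 1.03 and 3.57 CPM in controls 1 and 2 and at 0 elsewhere. Synpo, the 1 readable podocyte gene of 7, stood at 23.4 and 69.6 CPM and at 1.05 to 2.29 in the others.

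Over the 7 kidney lists, the test without control 3, that is of the injury libraries against controls 1 and 2, took in 24 genes, of which 20 were lower after injury and 2 higher, beside 31.5% and 28.2% of all 5617 genes tested. The 2 higher were Kcnj10 and Slc4a4, a bicarbonate carrier that astrocytes also make. The test over all 6 libraries called 0 of 5100 genes (0%), with 995 at an unadjusted p under 0.05; DESeq2 called 460 and limma-voom 0. The lists were chosen with earlier results of these libraries known, so these counts are no independent evidence of a direction. The test over all 6 libraries took in 9 genes of the kidney lists, against 24 without control 3. Slc34a1 and Slc17a1, at 0 in every injury library, passed the filter only through controls 1 and 2. Their direction was fixed by the filter, and nothing is read from the 20 calls.

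**Figure D3:**
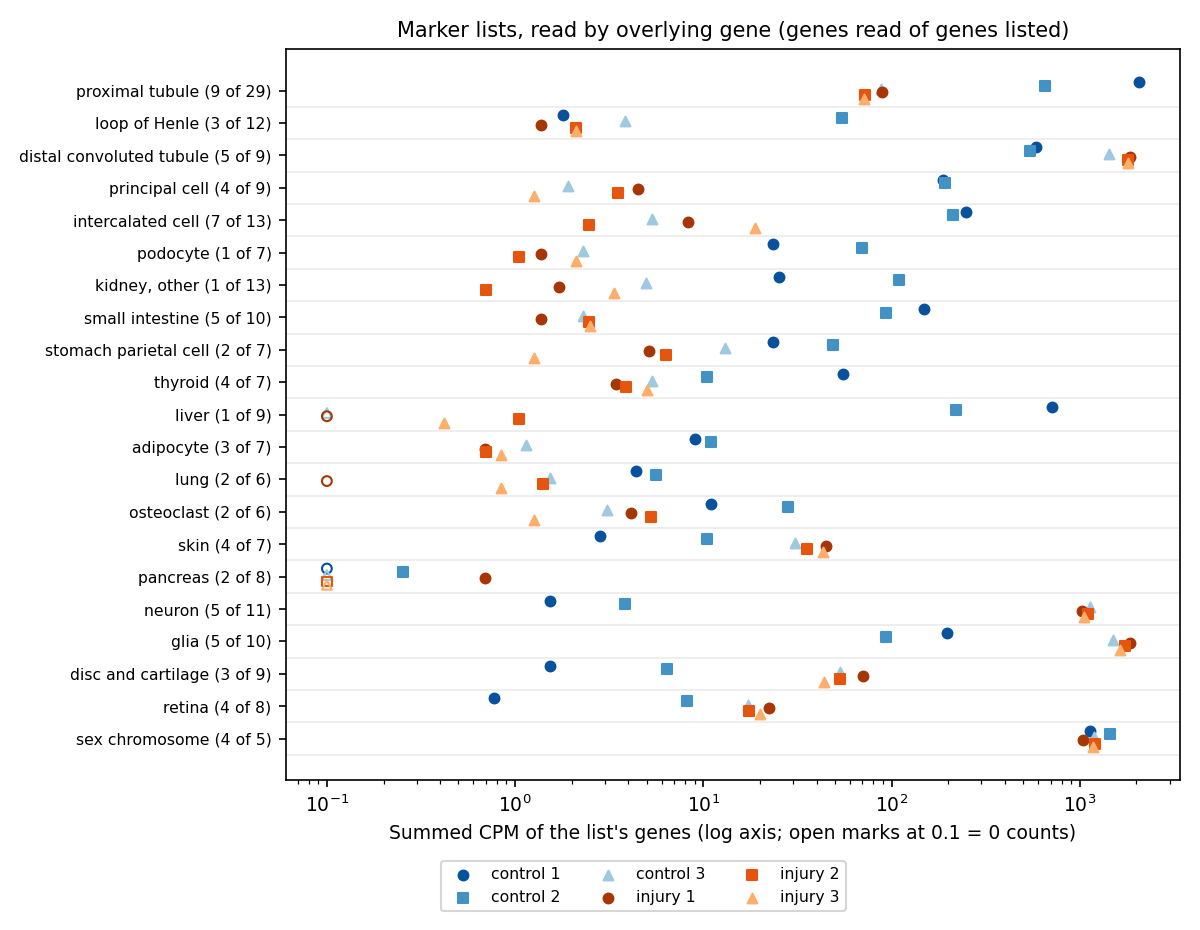
Summed level in CPM (log axis) of the readable genes of each marker list in each of the 6 libraries, with 1 point per library. The neuron list falls to 1.54 and 3.82 CPM in controls 1 and 2 from at least 1029 CPM in the others, while the proximal tubule, principal cell and intercalated cell lists are highest in controls 1 and 2, and the distal convoluted tubule list, which holds Kcnj10, is lowest there, at 586 and 546 CPM against 1437 to 1847.

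Markers of the other organs that share these transporters were counted in the same way. Of 67 genes in 9 lists, 25 could be read, and 9 were tested without control 3, in the same contrast, of which 8 were lower in the injury libraries and 1 higher, beside the same 31.5% and 28.2%. The 1 higher was Lor, a skin barrier protein, at 1.54 and 2.55 CPM in controls 1 and 2 and 29.4 to 42.0 in the others. The test over all 6 libraries took in 3 genes of these lists, against the 9 without control 3. Vil1 of the small intestine list, with 1 count in each injury library, passed the filter only through controls 1 and 2. Nothing is therefore read from the 8 calls. In the liver list, Hnf4a, which the proximal tubule also makes, stood at 710 and 221 CPM in controls 1 and 2 and at most 1.05 in the others. In the small intestine list, Vil1, a brush border protein of gut and kidney, stood at 147 and 90.01 CPM, and the other 4 readable genes at no more than 2.29 CPM in any library. The stomach list gave 2 genes, Kcnq1 at 23.4 and 48.7 CPM and Tff1 at 0 in all 6. The thyroid list gave 4, with Foxe1 at 0 in all 6, Tg at 1.54 and 0.765 CPM and Duox2 at 53.9 and 8.92 CPM in controls 1 and 2. Lung, skin and pancreas lists summed to at most 10.5 CPM in controls 1 and 2. The part that any of these tissues has in the levels of the 8 genes was not tested.

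The genes beside the 8 were read next, because 4 of the 8 lie in 2 pairs. Slc7a13 and Atp6v0d2 are 34.6 kb apart on opposite strands, and differed from each other in the order of controls 1 and 2, at 1233 and 140 against 84.2 and 131 CPM. Wwp1, a ubiquitin ligase 110 kb before Slc7a13, stood at 528 and 565 CPM in controls 1 and 2 and at 808 to 1043 in the others, and Ttpa, a vitamin E transfer protein 85.3 kb beyond Atp6v0d2, at 60.3 CPM in control 1, 11.98 in control 2 and 40.6 to 61.1 in the others. Around the aquaporins, Nfx1, a transcription factor 7.08 kb before Aqp7, was near level at 399 to 448 CPM in all 6 libraries. Nol6, a nucleolar protein 16.2 kb beyond Aqp3, was lower in controls 1 and 2, at 139 and 107 CPM, than in the others, at 353 to 496.

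The single genes had neighbours of their own. Cttnbp2, 43.7 kb beyond Cftr, stood at 54.9 and 117 CPM in controls 1 and 2 and at 181 to 273 in the others, the opposite order to Cftr. Ccdc180, 3.29 kb beyond Stra6l, was at 4.11 and 3.82 CPM against 5.45 to 11.5. Runx1t1, 609 kb before Slc26a7, was at 2.82 and 28.3 CPM against 153 to 181. None of the nearest neighbours outside the 8 that passed 10 CPM was higher in both of controls 1 and 2 than in all of the others. Among the wider neighbours of the 2 pairs, B4galt1, a galactosyltransferase at 523 and 246 against 28.1 to 45.1 CPM, and Kif24, a kinesin at 37.0 and 66.8 against 18.4 to 20.6 CPM, were.

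**Figure D4:**
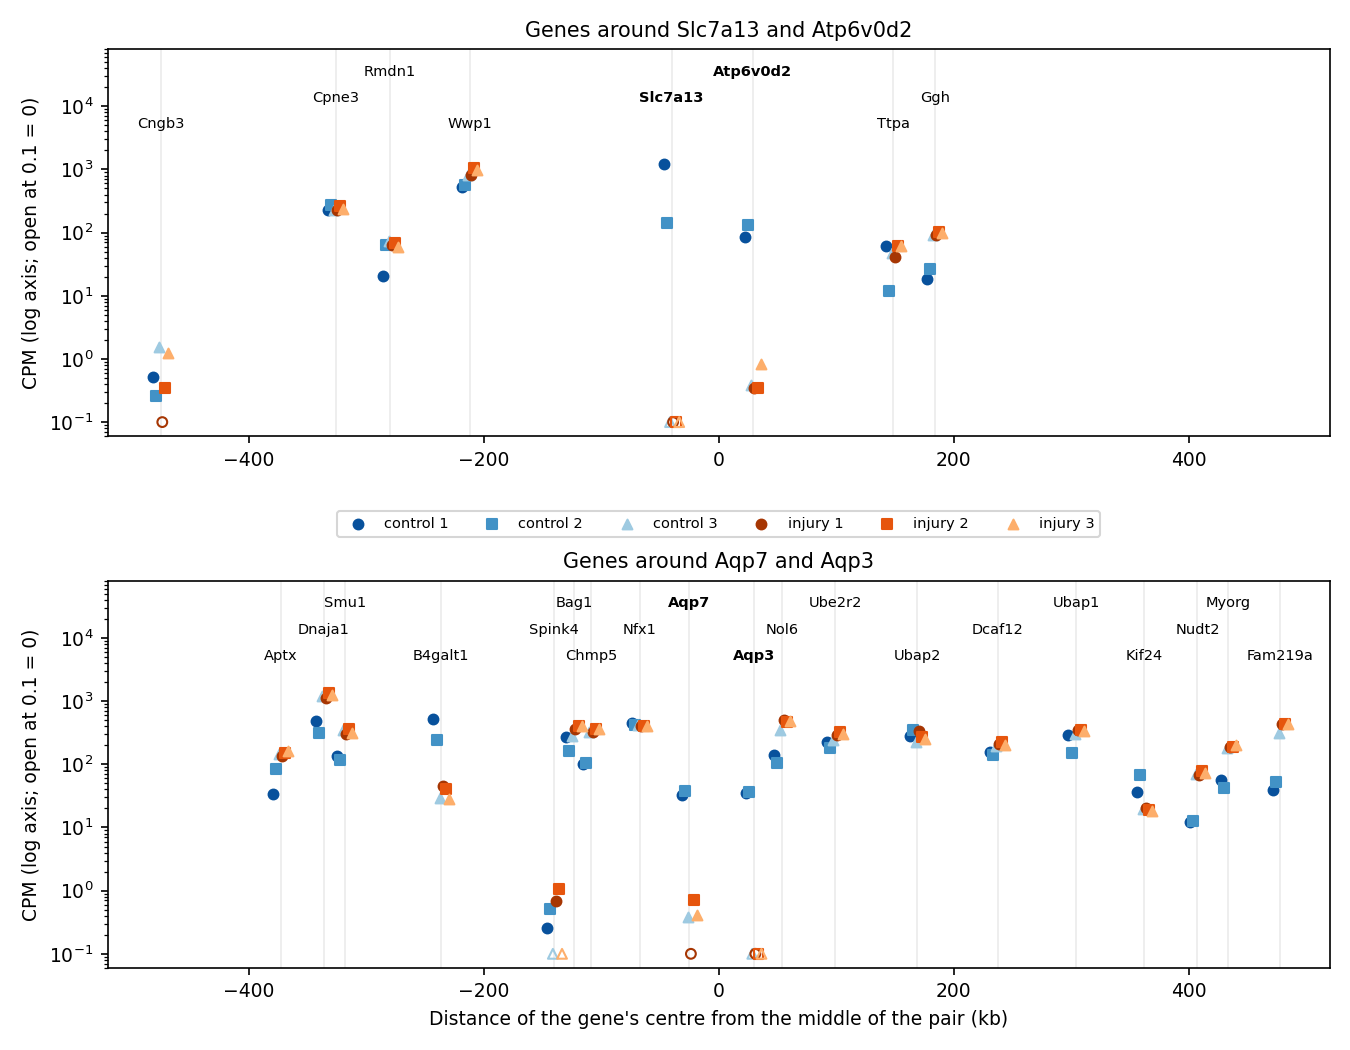
Level in CPM (vertical, log axis, open points at 0.1 for a count of 0) of genes within 500 kb of the Slc7a13 and Atp6v0d2 pair and of the Aqp7 and Aqp3 pair, against the distance of each gene's centre from the middle of the pair in kb, with the 6 libraries drawn side by side around that distance. Nfx1, 7.08 kb from Aqp7, lies at 399 to 448 CPM in all 6 libraries, while Aqp7 and Aqp3 are at 33.1 to 37.7 CPM in controls 1 and 2 and at most 0.702 CPM in the others.

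The genes most like each of the 8 were found among name-stable coding genes with 5 CPM or more in 1 library, by the distance between centred log2(CPM + 0.5) profiles over the 6 libraries, which share depth and composition. Acnat2 was second for Slc7a13 (1.68), at 433 and 52.8 CPM in controls 1 and 2 and 0 elsewhere. Acnat1 was nearest to Aqp7 (0.748), at 28.5 and 39.5 CPM. Both Acnat genes encode peroxisomal acyltransferases.

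Tfec, a transcription factor of the Mitf family, was nearest to 4 of the 8: Atp6v0d2 (0.580), Aqp3 (0.784), Stra6l (1.36) and Slc13a1 (2.49). It stood at 49.0 and 65.5 CPM in controls 1 and 2 and at 0 in the others. Mmp7, a matrix metalloprotease, was second for Aqp7, Aqp3, Atp6v0d2 and Stra6l, at 15.4 and 35.4 CPM and 0 elsewhere. Cftr was nearest to Ifnk (0.452) and Map3k8 (0.552), a kinase at 82.9 and 119 CPM in controls 1 and 2 and 7.13 to 11.4 in the others. Slc26a7 was nearest to Col28a1 (0.863), a collagen at 0.513, 8.41 and 1.91 to 7.54 CPM, and Gdf6 (0.962). Its counts are low enough that these likenesses rest on few reads.

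Other transporters and channels on name-stable features were read for comparison. There were 11 with a transporter or channel symbol, taken at any level. Of these, 2 were higher in both of controls 1 and 2 than in every other library, 4 lower and 5 overlapping. The higher 2 include Atp6v1fnb, picked by its symbol alone, at 1.28 and 1.78 CPM in controls 1 and 2 and at most 0.765 in the others. Over the 556 name-stable features of any kind with at least 5 CPM in 1 library, a filter not put on the 11, 26.8% were higher and 47.3% lower. The 8 genes, 7 of them higher in controls 1 and 2, were chosen on that pattern and are no comparison. Of the 11, 6 reached 100 CPM. Slc25a13, a mitochondrial aspartate-glutamate carrier, was higher in controls 1 and 2, at 230 and 107 CPM against 59.9 to 67.1. Kcnd2, a neuronal potassium channel, was lower, at 0.257 and 11.2 CPM against 424 to 472. Slc44a1, a choline transporter, was lower too, at 153 and 221 CPM against 991 to 1332. Atp6v1f, a subunit of the proton pump found in all cells, stood at 160 and 77.3 CPM against 251 to 304, the opposite direction to Atp6v0d2 in the same complex. Abca1, a cholesterol exporter at 538 and 1228 against 447 to 648 CPM, and Slc25a51, a mitochondrial carrier at 896 and 323 against 401 to 445 CPM, overlapped.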

How the data were processed

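The deposited values are counts of read pairs per gene name, summed over exons without strand by featureCounts 2.0.1, per the file headers. Bowtie 0.12.2 and the builds mm8 and mm9 appear in the submitters' processing notes, with no step named for them. The build and annotation of the counts are not given in the sources used here. Exon coordinates were set against GENCODE M21 (GRCm38) with no conversion: the 6 genes on chromosome 4 matched it base for base, and Slc13a1 and Cftr lay 1 base before it. A feature with at least 90% of its exonic bases on exons of its own gene was called name-stable. A feature sharing at least 100 bases with exons, 90% of them on 1 gene, was read as that gene; 12831 features, with 55.7% of all counts, were so read.

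Totals of 2385703 to 3921627 counts set the precision. edgeR 4.0.16 (R 4.3.3) tested injury against control over all 6 libraries with TMM scaling, filterByExpr, a quasi-likelihood test and Benjamini-Hochberg adjustment at 0.05, first on simulated data in which 200 of 12646 features were changed: at the common dispersion of the 6 libraries, 0.422, it recovered 0% of features changed 2-fold, 4% of those changed 4-fold, 40% at 8-fold and 92% at 16-fold. The changed features were drawn from the more abundant ones and raised in injury, with the same dispersion for every feature. Falls to a count of 0 and controls that differ as a set were not simulated, so these shares do not describe the 8 genes. Ratios of 2 libraries have 95% Clopper-Pearson intervals, median log2 ratios add 0.5 to each count, and the floor for a count of 0 is 3 counts. DESeq2 1.42.0, limma 3.58.1, other scalings and filters, a replicate block and leaving out libraries were alternatives. All 8 genes are named; beyond them, up to 6 of the most abundant readable genes of each list, the 2 most similar genes for each of the 8 and other transporters or channels at 100 CPM or more. Trp53inp1, which the search by symbol also picked, is no channel and was set aside. Nearest neighbours on the chromosome, B4galt1, Kif24, Slc5a12, Slc7a8, Slc17a6, Gria2, Aldh1l1, Foxe1, Tg and Tff1 fall outside this rule and were named after their values were seen. The genes and lists were chosen with earlier results of these data known. One of the most similar genes and 1 list gene are not reported here.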

Additional observations from a re-analysis of the deposited data

How the results depend on the processing

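For injury against control, edgeR called 0 of the features and 0 of the genes read by overlying features under other scalings, filters, thresholds and shares of overlap, with limma-voom, and without any 1 library other than control 3. DESeq2 called 1503 features and 460 genes. Leaving out 1 library gave 0 to 10231 features and 0 to 3355 genes, the highest of both being without control 3. Without controls 1 and 2, 939 features and 38 genes were called. The cause was not tested. The log2 fold changes of Slc13a1 and Cftr were negative under every alternative. Without controls 1 and 2, they were only -0.66 for Slc13a1 and -0.19 for Cftr. Each was smaller than its SE, so no direction is read from that setting. Among the settings with more than 1 control, Slc13a1 and Cftr were called by DESeq2 and without control 3 only. The median control 1 to control 2 ratio of the 8 genes was 0.7996, 0.902 without the 10 most abundant features and 1.17 under TMM scaling. With the replicate number as a block, 0 features and 0 genes were called (2655 and 665 at an unadjusted p under 0.05); same-numbered libraries correlated at 0.0653, -0.138 and 0.0594 in their deviations, so the numbers were not taken as pairs. Depth limits Slc26a7, with 4 counts in control 1, and leaves Slc7a13 and Aqp3, with no count in 4 libraries, as lower bounds.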
